A study of Mus musculus with 22 samples.

Results

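The nuclear genes for the proteins of the mitochondrial ribosome were followed in NIH/3T3 cells, an established line of mouse embryonic fibroblasts. The set holds every gene of the deposited table whose symbol is Mrpl or Mrps followed by a digit, which gave 78 of 11208 genes. Of these, 49 carry the large-subunit name Mrpl and 29 the small-subunit name Mrps, 77 are protein-coding, and the other is the pseudogene Mrpl48-ps. The choice used symbols and no measured value. All 78 had a normalized count of at least 10 in 2 or more libraries, a filter that removed no gene of the table.

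RNA was sequenced from an E2F1 line, with a doxycycline-inducible construct for the transcription factor E2F1, and an EV line, with the inducible construct labelled EV. All groups were first starved for 48 h in 0.25% serum. The E2F1 line was sampled at 0 h and after 2, 6 and 12 h of 500 ng/ml doxycycline. The EV line was sampled at the same times of doxycycline and after 2, 6 and 12 h of 10% serum, and its single 0 h group served both series. Each of the 11 groups held 2 libraries, 22 in all. Whether the replicates came from separate cultures, and whether a line is 1 clone, is not given in the sources used here, so p-values measure the spread between these libraries, which may be technical.

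The mitochondrial ribosome makes the few proteins encoded in mitochondrial DNA, all of them subunits of the respiratory chain or of ATP synthase. Its RNAs come from mitochondrial DNA, whereas its proteins come from nuclear genes and are imported from the cytosol. Doxycycline, a tetracycline, binds bacterial ribosomes and is also known to inhibit translation by mitochondrial ribosomes; translation was not measured here. The EV line given doxycycline without added serum measures that agent and further starvation without induced E2F1.

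The normalized counts summed to between 34014608 and 46057140 per library. The number of reads or read pairs counted in the genes of the table could be estimated in 9 libraries, at 32200000 to 50300000. It is unknown in the other 13, and the full sequencing depth is unknown in all. All 11 fibroblast markers examined were in the table, and none of the 5 epithelial, 4 immune, 3 endothelial or 3 muscle markers was, in a table that holds only genes above a low level. Of 3 neural markers 1 was in the table, Tubb3, with 11 to 790 normalized counts and a median of 104.5. E2f1, the mRNA under test, stood at 1703 and 1637 normalized counts in the E2F1 line at 0 h, at 1535 and 1755 at 2 h, at 3806 and 3602 at 6 h and at 2683 and 2845 at 12 h. Thus the count did not separate the 2 h libraries from 0 h, and whether it includes the construct is not given in the sources used here. The Y-linked gene Ddx3y read 316 to 580 in the E2F1 line and 4 to 9 in the EV line at 0 h and at 12 h of doxycycline. It stood at 103 and 71 in the EV line at 2 h of doxycycline, at 132 and 170 at 2 h of serum, and at 18 to 48 in the 4 EV libraries at 6 h. The 2 h libraries of the EV line thus stand apart, and the 4 at 6 h also lie above those at 0 h, though less far. The EV comparisons at 2 h and 6 h, and the differences from EV at 6 h, rest on these libraries. They have no value without them, and the part of these libraries in those results was not tested.

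Promoter letters are shown for the members on which the comparisons turn: Mrpl12, the largest rise with serum, Mrpl49 and Mrpl28, the largest rises in the E2F1 line, and the members with letters of an E2F site. RefSeq windows on GRCm38.p6, from 250 bases before a start to 50 after it, were at hand for 68 of the 78 genes. E2F letters were sought on both strands as TTTGGCGC, TTTCCCGC, TTTCGCGC or TTTGGCGG, with no mismatch. Stretches before the start are given, on the strand of the gene, 5′ to 3′, and capitals mark E2F letters. They lie outside annotated exons, with the exception of Mrpl18: its 30 bases lie before the RefSeq start but inside an exon of the gene in the GENCODE M21 annotation, which starts it further upstream.
Mrpl12 (chr11:120484417-120484612, plus strand): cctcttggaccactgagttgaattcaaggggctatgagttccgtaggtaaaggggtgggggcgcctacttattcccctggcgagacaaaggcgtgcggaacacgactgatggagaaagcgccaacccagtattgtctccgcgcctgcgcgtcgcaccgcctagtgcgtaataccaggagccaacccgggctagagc
Mrpl49 (chr19:6057786-6057843, minus strand): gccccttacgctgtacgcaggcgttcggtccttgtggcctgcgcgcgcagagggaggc
Mrpl28 (chr17:26123283-26123499, plus strand): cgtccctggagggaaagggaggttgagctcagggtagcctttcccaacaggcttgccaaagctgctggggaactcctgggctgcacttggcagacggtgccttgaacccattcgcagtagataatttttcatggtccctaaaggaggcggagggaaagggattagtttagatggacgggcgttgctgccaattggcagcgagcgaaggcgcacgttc
Mrps12 (chr7:28741822-28741991, minus strand): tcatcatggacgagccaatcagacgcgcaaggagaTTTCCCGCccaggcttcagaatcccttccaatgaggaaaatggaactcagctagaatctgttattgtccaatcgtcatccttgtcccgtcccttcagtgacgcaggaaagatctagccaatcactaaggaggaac
Mrps23 (chr11:88204168-88204387, plus strand): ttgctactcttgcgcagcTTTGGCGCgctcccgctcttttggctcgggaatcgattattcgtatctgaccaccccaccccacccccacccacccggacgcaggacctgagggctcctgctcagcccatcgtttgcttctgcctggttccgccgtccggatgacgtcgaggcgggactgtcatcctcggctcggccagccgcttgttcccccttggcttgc
Mrpl18 (chr17:12916260-12916289, minus strand): gtagaagaaagGCGCGAAAgtggaaaacgg

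In the GENCODE M21 annotation of GRCm38 the gene Mrpl12 spans chr11:120484613-120489065 on the plus strand, Mrpl49 chr19:6053622-6057785 on the minus strand and Mrpl28 chr17:26123500-26126613 on the plus strand. E2F letters lay 135 bases before the start of Mrps12, 202 before that of Mrps23 and 187 before that of Mrpl18, counted from the RefSeq start. These are 3 of 68 members, or 4.41%, against 470 of 8606 genes of the table with a window, or 5.46%. The windows of Mrpl12, Mrpl49 and Mrpl28 held none. Letters known for nuclear genes of mitochondrial function were also counted, on both strands. The NRF1 letters GCGCATGCG were in 7 of the 68 members (10.3%) and in 4.5% of the genes of the table. The GABPA letters CCGGAAGT were in 12 (17.6%, against 10.1%), and the YY1 letters AAGATGGCG in 8 (11.8%, against 4.01%). The E-box CACGTG was in 5 members (7.35%, against 12.1%), and the NF-Y letters ATTGG in 26 (38.2%, against 44%). A match is a description of letters in the window and not a binding site.

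Levels were moderate. The mean normalized count over all libraries was at least 500 for 72 of the 78 genes. Per kilobase of annotated exon, Mrpl54 stood highest with 2234 normalized counts, ahead of Mrpl28 with 1893 and Mrps21 with 1715. Mrps30 stood lowest with 95.18, next to Mrpl48 with 101.1 and Mrps35 with 112.4. Exon length here is that of all annotated transcripts together, and the members were shorter than the table, with a median of 2394 bases against 4547.5. Together the 78 genes took 0.2178% to 0.2414% of the library total in the 4 libraries at 0 h.

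**Figure D1:**
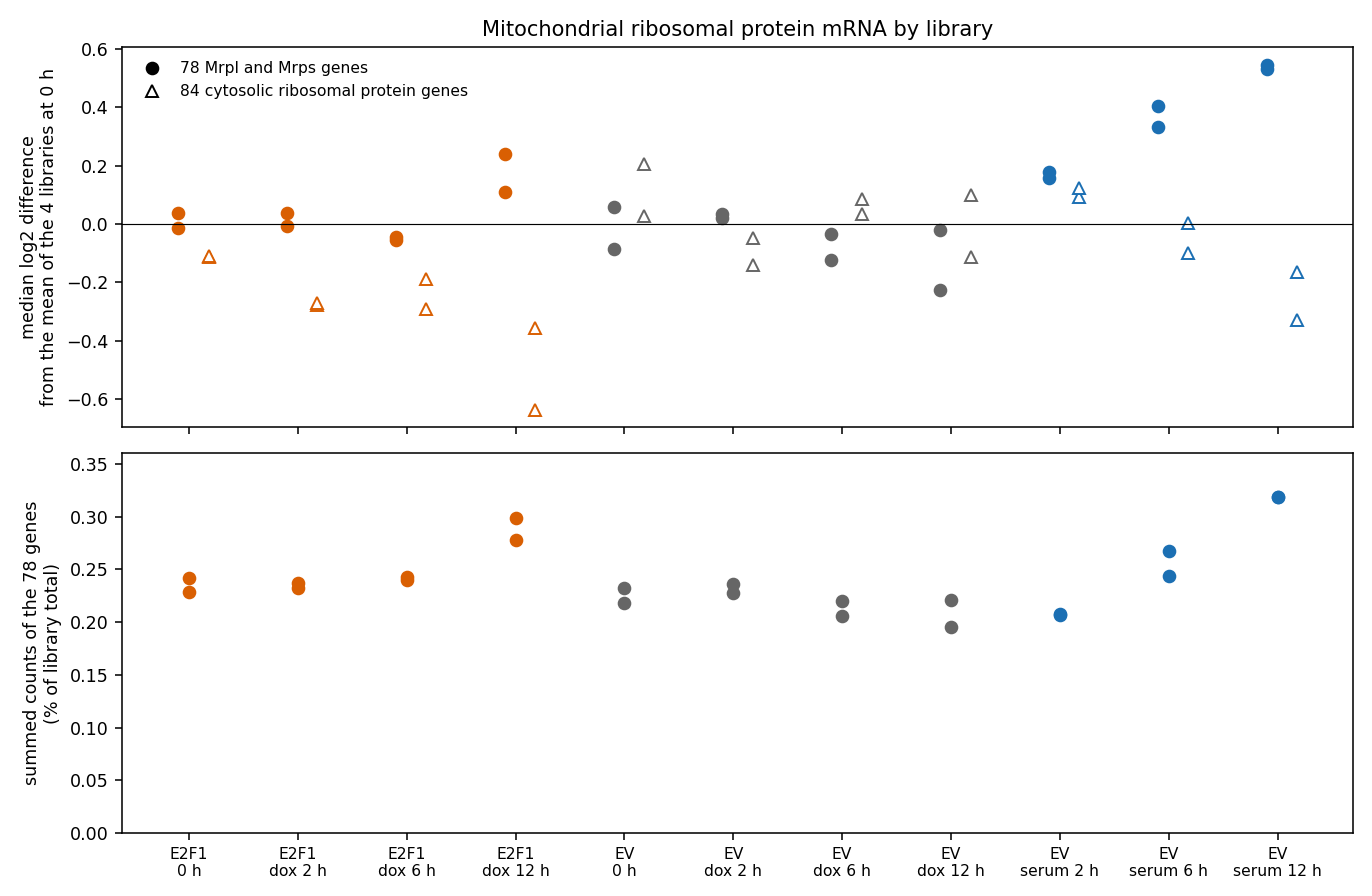
Upper panel: median log2 difference of 78 Mrpl and Mrps genes (circles) and of 84 cytosolic ribosomal protein genes (triangles) from the mean of the 4 libraries at 0 h, 1 point per library. Lower panel: summed normalized counts of the 78 genes as a percentage of the library total. The EV libraries at 12 h of serum are highest in both, at 0.53 and 0.55 and at 0.3185% and 0.3181%, and the E2F1 libraries at 12 h come next in the lower panel, at 0.2775% and 0.2984%.

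The first comparison asked whether the 2 lines differed before any treatment. Differences here and below are on the log2(normalized count + 1) scale, from limma with a Benjamini-Hochberg adjustment over all genes, and "passed the test" means an adjusted p of at most 0.05. At 0 h, 5 members were higher in the E2F1 line (8.86% of all genes were) and 2 were lower (6.17%). Mrpl23, whose bacterial relative lies at the exit of the ribosomal tunnel, read 896 and 872 in the E2F1 line and 1573 and 1578 in the EV line. The ranges do not overlap, and the difference was -0.83 ± 0.14 (SE), adjusted p = 0.000595. Mrpl12, a large-subunit protein that also binds the mitochondrial RNA polymerase, read 1819 and 1710 against 1263 and 1285, a difference of 0.47 ± 0.12 (adjusted p = 0.0162). Its call was lost when any of these 4 libraries was left out, with 1 to 3 members then called in all. Mrps25, Mrps14, Mrpl38 and Mrps9 were the other higher members, at 0.47, 0.40, 0.35 and 0.33, and Mrpl54 the other lower one, at -0.40. Each of these 5 calls was also lost without at least 1 of the 4 libraries.

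Doxycycline without induced E2F1 left nearly all members below the threshold. At 2 h of doxycycline in the EV line 1 member was lower (2.43% of all genes) and none higher (4.93%), with 9 at an unadjusted p under 0.05. At 6 h limma called none, 3 members had an unadjusted p under 0.05, and 0.134% of all genes passed as higher and 0% as lower. The share of all genes at the unadjusted cut-off is not given. The unadjusted counts at 2 h and 6 h therefore do not show whether the members moved apart from the table. At 12 h 1 member was lower (3.42% of all genes) and none higher (0.749%). The median change of the 78 genes was 0.04, -0.07 and -0.12 at 2, 6 and 12 h, against 0.02, 0.00 and 0.00 for all genes. At 12 h the 2 libraries differed from each other: their medians against the 0 h mean of both lines were -0.23 and -0.02, and replicate 1 is the lower.

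Mrps6, a small-subunit protein, was the call at 2 h. It read 1356 and 1340 at 0 h, 901 and 856 at 2 h, 1179 and 1067 at 6 h and 1158 and 1016 at 12 h. All 6 treated libraries lie below both 0 h libraries. The difference at 2 h was -0.62 ± 0.14 (adjusted p = 0.0107), and it did not pass without 0 h replicate 1 or without 2 h replicate 2. Mrps6 shares 464 of its 1533 exon bases, on the same strand, with other genes that include Slc5a3, a transporter gene. Slc5a3 itself changed by -0.54 ± 0.20 at 2 h of doxycycline (adjusted p = 0.107), which did not pass the test. With serum at 2 h both were lower, Mrps6 at -0.61 ± 0.14 (adjusted p = 0.000668) and Slc5a3 at -1.20 (adjusted p = 2.59e-05). Whether reads of the shared bases enter the counts of Mrps6 was not tested.

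Mrpl20 was the call at 12 h, with 854 and 995 at 0 h and 610 and 744 at 12 h of doxycycline. The ranges do not overlap, and the difference was -0.45 ± 0.13 (adjusted p = 0.0494). This call sits at the threshold and was lost under 6 of the alternatives, among them quantile normalization and a fit of only the groups compared. The genes set for every main comparison gave differences of -0.14 for Mrpl12, -0.04 for Mrps12, -0.39 for Mrps18b, 0.09 for Mrpl41, -0.22 for Mrps27 and -0.19 for Mrpl58 at 12 h of doxycycline, none past the test.

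Serum was followed by a rise in most of the set. At 12 h of serum 60 members were higher and 2 lower, where 36% of all genes were higher and 29.7% lower. The median change was 0.58, against 0.05 over all genes. Asking also for a change of at least 1.5-fold left 39 higher (21.9% of all genes) and none lower (18.1%). At 6 h of serum 47 members were higher (36.5% of all genes) and 5 lower (31%), with a median of 0.44 against 0.03. At 2 h of serum 34 were higher (37.5%) and 10 lower (33.5%), with a median of 0.22 against 0.03. Both subunits took part: 37 of 49 Mrpl genes and 23 of 29 Mrps genes were higher at 12 h.

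The early split depends on how libraries are scaled. With every library set to the same total, the counts at 2 h of serum became 14 higher (23.3% of all genes) and 33 lower (52.7%), and the median of all genes moved to -0.34. The same scaling gave 34 rises (26%) against 14 falls (42.6%) at 6 h, and 56 (32%) against 2 (34.4%) at 12 h. Quantile normalization gave 33 higher (32.3% of all genes) and 9 lower (36.7%) at 2 h, 45 (31.9%) and 5 (32.2%) at 6 h and 53 (32%) and 2 (33.9%) at 12 h. As deposited, the median of the members stood above that of all genes by 0.19 at 2 h, 0.40 at 6 h and 0.53 at 12 h, and after quantile normalization by 0.21, 0.39 and 0.52. Equal totals shift nearly all genes of a library alike and so leave this distance almost fixed. In bulk RNA a change in the share of cells that hold an mRNA and a change in its amount per cell cannot be told apart.

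Mrpl12 rose the most at all 3 times of serum. It read 1263 and 1285 at 0 h, 3128 and 3389 at 2 h, 3583 and 3163 at 6 h and 3894 and 4279 at 12 h. Every serum library lies above both 0 h libraries by more than the spread within any group. The change at 12 h was 1.68 ± 0.12 (adjusted p = 2.38e-09), following 1.35 at 2 h and 1.40 at 6 h. Mrpl20, whose bacterial relative is needed early in large-subunit assembly, was also high by 2 h, with 2198 and 2099 against 854 and 995 at 0 h, a change of 1.22 ± 0.13 (adjusted p = 7.97e-08). It then read 1907 and 2166 at 6 h and 1950 and 2045 at 12 h, no higher than at 2 h. Mrpl16 passed as higher at all 3 times too, with changes of 0.84, 1.00 and 1.18.

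Mrps12 and Mrps18b, of the small subunit, were highest at 6 h. Mrps12, a protein of the decoding centre, read 552 and 595 at 0 h, 773 and 730 at 2 h, 1214 and 1420 at 6 h and 1050 and 1024 at 12 h. Its change was 1.19 ± 0.15 at 6 h, with an adjusted p of 1.6e-06, and 0.85 at 12 h, with one of 8.23e-05. Mrps18b, one of the mammalian paralogs of ribosomal protein S18, read 375 and 336 at 0 h, 652 and 602 at 2 h, 902 and 962 at 6 h and 776 and 838 at 12 h. No serum library of either gene overlaps 0 h, and neither passed the test between 6 and 12 h. The change of Mrps18b was 1.39 ± 0.18 at 6 h, with an adjusted p of 1.63e-06, and 1.18 ± 0.18 at 12 h, with one of 1.3e-05.

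Other members rose late. Mrpl18, which in bacteria binds the 5S RNA, read 847 and 961 at 0 h, 871 and 1036 at 2 h, 1276 and 1170 at 6 h and 2249 and 2225 at 12 h. The 2 h libraries fall among or just above those at 0 h, and the rise from 6 to 12 h was 0.87 ± 0.12 (adjusted p = 1.78e-05). Mrpl41 read 560 and 733 at 0 h and 1397 and 1519 at 12 h, a change of 1.18 ± 0.17 (adjusted p = 9.56e-06). Mrps25 changed by 1.14 at 12 h, and 4590 of the 6576 exon bases of Mrps25 are shared with Nr2c2. Between 6 and 12 h 18 members were higher (19.3% of all genes) and 2, Mrpl1 and Mrps31, were lower (20.6%). With equal totals this became 32 higher (28.4% of all genes) and none lower (12.4%).

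By time, 30 members passed the test as higher at 2, 6 and 12 h of serum, 15 at 6 and 12 h but not at 2 h, and 13 at 12 h only. These are 38.5%, 19.2% and 16.7% of the members, where the same classes hold 22.9%, 4.36% and 7.35% of all genes. Mrpl10, Mrpl14, Mrpl34 and Mrpl42 passed as lower at 2 h and as higher at 12 h, or 5.13% of the members against 3.65% of all genes. Mrpl42 read 1079 and 1207 at 0 h, 773 and 822 at 2 h, 1108 and 981 at 6 h and 1853 and 1642 at 12 h, which places 2 h below and 12 h above both 0 h libraries. Its change was -0.52 ± 0.12 at 2 h (adjusted p = 0.000745). Mrpl45, a protein that holds the ribosome to the inner membrane, read 684 and 766 at 2 h against 966 and 1290 at 0 h. Its change was -0.62 ± 0.12 (adjusted p = 0.000195), and at 6 h it read 1129 and 1075 again.

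Mrpl23 and Mrpl24, both related to proteins at the exit of the bacterial ribosomal tunnel, were the only members that passed as lower at all 3 times, as did 17.1% of all genes. Mrpl23 read 1573 and 1578 at 0 h, 1240 and 1175 at 2 h, 1278 and 1130 at 6 h and 1061 and 1242 at 12 h. All 6 serum libraries lie below 0 h, and the change at 12 h was -0.46 ± 0.14 (adjusted p = 0.00711). In the E2F1 line at 0 h Mrpl23 read only 896 and 872. Ddx3y, high in that line, was raised in the EV libraries at 2 and 6 h. Whether this bears on the falls of Mrpl23 at those times was not tested. Mrpl24 read 736 and 790 at 0 h and 547 and 622 at 12 h, a change of -0.39 ± 0.13 (adjusted p = 0.0169). Both calls at 12 h were lost without serum replicate 1 of that time, and that of Mrpl24 also without 0 h replicate 2. Mrpl24 shares 594 exon bases with Rrnad1. Mrpl58, a release factor that frees stalled ribosomes, read 717 and 846 at 0 h and 752 and 849 at 12 h of serum, which overlap, with a change of 0.04 ± 0.15. Mrps27 changed by 0.31 at 12 h (adjusted p = 0.0551).

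**Figure D2:**
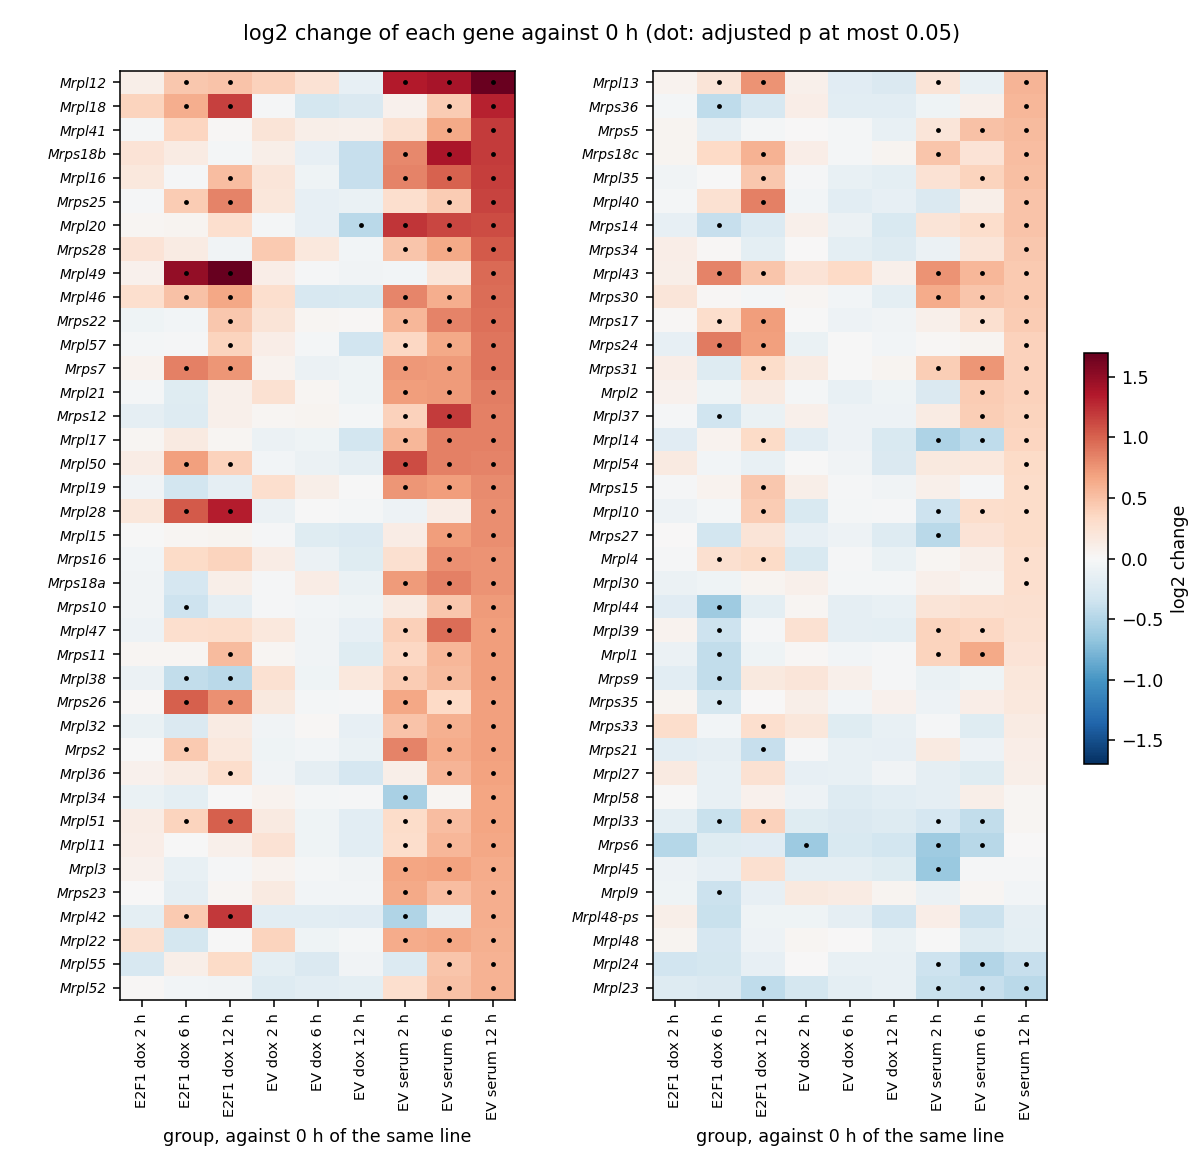
log2 change of each of the 78 genes against 0 h of its line, in 9 groups, ordered by the change at 12 h of serum; red is higher, blue lower, and a dot marks an adjusted p of at most 0.05. Serum columns are red for most genes, the doxycycline columns of the EV line hold 2 dots, and the E2F1 columns hold 17 higher and 12 lower genes at 6 h and 30 and 3 at 12 h.

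In the E2F1 line the response was mixed at 6 h and upward at 12 h. At 2 h limma called no member, 5 had an unadjusted p under 0.05, and 0.865% of all genes passed as higher and 0.99% as lower. For the unadjusted count, too, the share of all genes is not given. At 6 h of doxycycline 17 members were higher (28.8% of all genes) and 12 lower (22.9%). The median change was -0.04, against -0.03 over all genes. At 12 h 30 were higher (31.8%) and 3 lower (29.7%), with a median of 0.17 against -0.02. With a change of at least 1.5-fold 14 were higher (20.3%) and none lower (15.7%). The share of members that were lower at 12 h, 3.85%, compares with 29.7% of all genes, and the share that were higher, 38.5%, with 31.8%.

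The split at 6 h turned with scaling, for the members and for all genes. It became 13 higher (23.9% of all genes) and 22 lower (33.7%) at equal totals, and 12 (23.7%) and 22 (34.1%) after quantile normalization. At 12 h it was 26 (29.3%) and 4 (33.7%) at equal totals and 25 (27.9%) and 8 (36.8%) after quantile normalization. The median of the members stood 0.18 above that of all genes at 12 h as deposited and after quantile normalization. The counts as deposited were also split by exon overlap. At 6 h, 11 of the 32 members that share exon bases with another gene were higher (28.8% of all genes) and 3 lower (22.9%). Of the 46 that share none, 6 were higher and 9 lower. At 12 h, 17 and 0 of the 32 compare with 13 and 3 of the 46, where 31.8% of all genes were higher and 29.7% lower. The part of overlap in the result was not tested.

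Mrpl49, a protein found in mitochondrial but not bacterial ribosomes, rose the most. It read 1567 and 1328 at 0 h, 1470 and 1557 at 2 h, 4101 and 4051 at 6 h and 4481 and 4900 at 12 h. The 2 h libraries lie within the 0 h range, and those at 6 and 12 h lie far above it. The change was 1.5 ± 0.12 at 6 h, with an adjusted p of 1.52e-08, and 1.70 ± 0.12 at 12 h, with one of 2.71e-09, and it passed under all 14 alternatives run at each time. In the EV line Mrpl49 stayed between 1102 and 1510 with doxycycline and read 2753 and 2513 at 12 h of serum.

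Mrpl28, related to bacterial L28, read 1982 and 2007 at 0 h, 2219 and 2321 at 2 h, 4113 and 4138 at 6 h and 4953 and 5103 at 12 h. All libraries from 2 h on lie above 0 h, and the change was 1.05 ± 0.10 at 6 h, with an adjusted p of 8.65e-08, and 1.33 ± 0.10 at 12 h, with one of 3.47e-09. Mrpl28 shares no exon base with another annotated gene. In the small subunit Mrps26 read 1617 and 1675 at 0 h, 3381 and 3291 at 6 h and 2785 and 2842 at 12 h, a change of 1.02 ± 0.10 at 6 h (adjusted p = 7.57e-08). Mrps24 changed by 0.89, Mrps7 by 0.85 and Mrpl43 by 0.84 at 6 h. The last shares 507 of its 1520 exon bases with Twnk, the gene of the mitochondrial DNA helicase, which itself rose by 0.77 at 6 h (adjusted p = 2.72e-06).

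**Figure D3:**
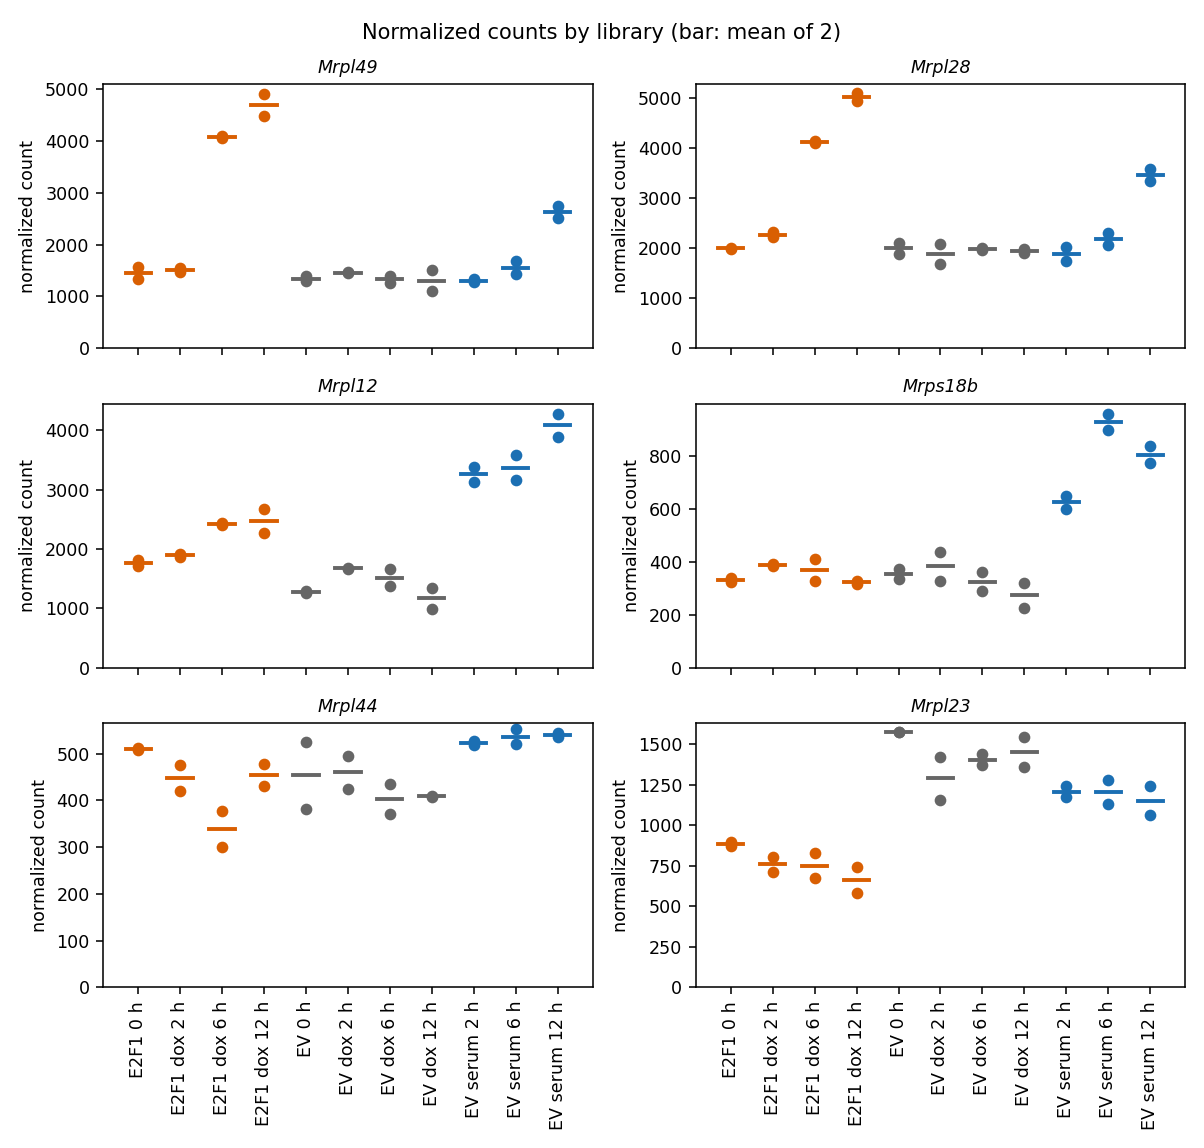
Normalized counts of Mrpl49, Mrpl28, Mrpl12, Mrps18b, Mrpl44 and Mrpl23 in all 22 libraries, 1 point per library with a bar at the mean of 2; orange is the E2F1 line, grey the EV line at 0 h and with doxycycline, blue the EV line with serum. Mrpl49 and Mrpl28 exceed 4000 at 6 h in the E2F1 line, whereas Mrpl12 and Mrps18b are highest with serum.

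A further group rose between 6 and 12 h. Over this step 27 members were higher (15.1% of all genes) and 2, Mrpl50 and Mrps2, lower (20.2%); with any 1 of the 4 libraries left out, 15 to 19 were called. Mrpl42 read 1102 and 1106 at 0 h, 1528 and 1473 at 6 h and 2489 and 2603 at 12 h. Its 3 times do not overlap, and the change at 12 h was 1.20 ± 0.12 (adjusted p = 1e-07). Mrpl18 read 898 and 880 at 0 h, 1410 and 1311 at 6 h and 1919 and 2076 at 12 h, a change of 1.17 ± 0.12 at 12 h (adjusted p = 2.06e-07). Mrpl51 read 1848 and 1630 at 0 h, 2358 and 2171 at 6 h and 3314 and 3719 at 12 h, a change of 1.02 ± 0.09 (adjusted p = 3.53e-08). Mrpl40 changed by 0.86 at 12 h (adjusted p = 2.85e-05). Of the 17 members higher at 6 h, 16 were also higher at 12 h, the exception being Mrps2.

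The falls at 6 h were smaller. Of the 12 lower members, 10 were not called at 12 h, Mrpl33 was then higher, and Mrpl38 was lower at both times. Not being called does not show a return: for 6 of the 10, Mrpl44 among them, both 12 h libraries still lay below both 0 h libraries. Nor does this count show a lasting fall, since the 10 were picked by a fall against these same 0 h libraries. The share of all genes with this pattern was not counted. Mrpl44, a protein with a ribonuclease III-like fold, read 512 and 507 at 0 h, 300 and 377 at 6 h and 430 and 477 at 12 h. The 6 h libraries lie below all others of the line, and the change was -0.60 ± 0.16 (adjusted p = 0.004), which did not pass without 6 h replicate 1. Mrpl38 read 1546 and 1337 at 0 h, 1063 and 1083 at 6 h and 1029 and 1071 at 12 h, a change of -0.45 ± 0.10 at 12 h (adjusted p = 0.000979). With serum it rose instead, from 1133 and 1125 to 1884 and 1803 at 12 h.

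Mrpl33 read 933 and 901 at 0 h, 745 and 662 at 6 h and 1180 and 1237 at 12 h. Its rise from 6 to 12 h, 0.78 ± 0.12 (adjusted p = 8.8e-05), was the largest of that step. Mrps36, Mrpl1, Mrps9 and Mrps14 changed by -0.42, -0.42, -0.41 and -0.40 at 6 h. The calls of Mrps36 and Mrpl1 were lost in 3 and 4 of the fits that leave out a library, and the product of Mrps36 is now placed in the 2-oxoglutarate dehydrogenase complex and not in the ribosome. At 12 h Mrpl23 and Mrps21 were also lower, at -0.43 and -0.39, and both calls were lost without replicate 1 of either time. Of the genes set for every main comparison, Mrpl12 rose by 0.46 at 6 h and 0.48 at 12 h. The changes of Mrps12, Mrps18b, Mrpl41, Mrps27 and Mrpl58 at 12 h were 0.09, -0.04, 0.01, 0.21 and 0.07, none past the test.

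To separate E2F1 from doxycycline, the change in the E2F1 line was set against that in the EV line at the same time. At 6 h the difference was positive for 13 members (22.2% of all genes) and negative for 2 (12.3%), and at 12 h positive for 28 (27.3%) and negative for 1 (23.3%). Scaling changed the split at 6 h to 11 (18.7% of all genes) and 7 (20.1%) at equal totals and to 10 (18.5%) and 8 (23%) after quantile normalization. The largest differences at 12 h were those of Mrpl49 (1.76 ± 0.18), Mrpl18 (1.41 ± 0.17), Mrpl42 (1.39 ± 0.17) and Mrpl28 (1.37 ± 0.14). Mrpl38 was the negative one, at -0.63 ± 0.15 (adjusted p = 0.00148). At 6 h Mrpl9 and Mrps9 were negative, at -0.50 and -0.49, so 2 of the 12 falls at 6 h also differed from the EV line. The call of Mrps9 was lost without 0 h replicate 2 or 6 h replicate 1 of either line. Mrpl38 and Mrps9 stood higher in the E2F1 line at 0 h, and the part of those libraries here was not tested.

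Serum and E2F1 were then compared, each against 0 h of its own line. Serum was given only to the EV line and E2F1 was induced only in the other. A difference of agent and a difference of line therefore cannot be told apart here. This comparison and the last one share the E2F1 libraries and the EV libraries at 0 h, so they are not independent. At 12 h 28 members passed as higher in both, 32 with serum and not in the E2F1 line, and Mrpl33 and Mrps33 in the E2F1 line and not with serum, while Mrpl38 was lower in the E2F1 line and higher with serum. Of all genes, 19% passed as higher in both, 17% with serum and not in the E2F1 line, 12.8% the other way round, and 5.69% as lower in the E2F1 line and higher with serum. The members' shares were 35.9%, 41%, 2.56% and 1.28%. The test of the difference itself, E2F1 change minus serum change, was positive for 4 members (25% of all genes) and negative for 32 (23.8%) at 12 h. At 6 h it was positive for 7 (30.3%) and negative for 36 (27.6%). The 4 at 12 h were Mrpl49 (0.73 ± 0.18), Mrpl42 (0.59 ± 0.17), Mrpl28 (0.54 ± 0.14) and Mrpl51 (0.35 ± 0.13). The call of Mrpl51 was lost in 6 of the fits that leave out a library.

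The members with the largest shortfall against serum at 12 h were Mrps18b at -1.22 ± 0.25, Mrpl12 at -1.20 ± 0.17, Mrpl41 at -1.17 ± 0.24, Mrpl38 at -1.16 ± 0.15 and Mrps28 at -1.11 ± 0.19, with adjusted p-values from 4.46e-06 to 0.000679. Mrpl12 and Mrpl38 already stood higher in the E2F1 line at 0 h, by 0.47 and 0.35, which enters their shortfall. The means of Mrpl12 at 12 h were 2468.5 in the E2F1 line and 4086.5 with serum. At 6 h the largest shortfalls were those of Mrps12 at -1.42 ± 0.21 and Mrps18b at -1.24 ± 0.25. Mrps18b read 339 and 325 in the E2F1 line at 0 h and 328 and 318 at 12 h, which overlap, while with serum it exceeded 0 h in all 6 libraries. Mrps12, which has E2F letters in its promoter as shown above, read 674 and 740 at 0 h and 694 and 813 at 12 h in the E2F1 line. Mrps23, with E2F letters too, was higher with serum at all 3 times and not called in the E2F1 line. Mrpl18, the other member with such letters, was higher in both at 12 h. Over the 78 genes the changes at 12 h had a Pearson r of 0.38 between E2F1 and serum, and over all 11208 genes 0.46, as a description of genes within the same libraries.

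**Figure D4:**
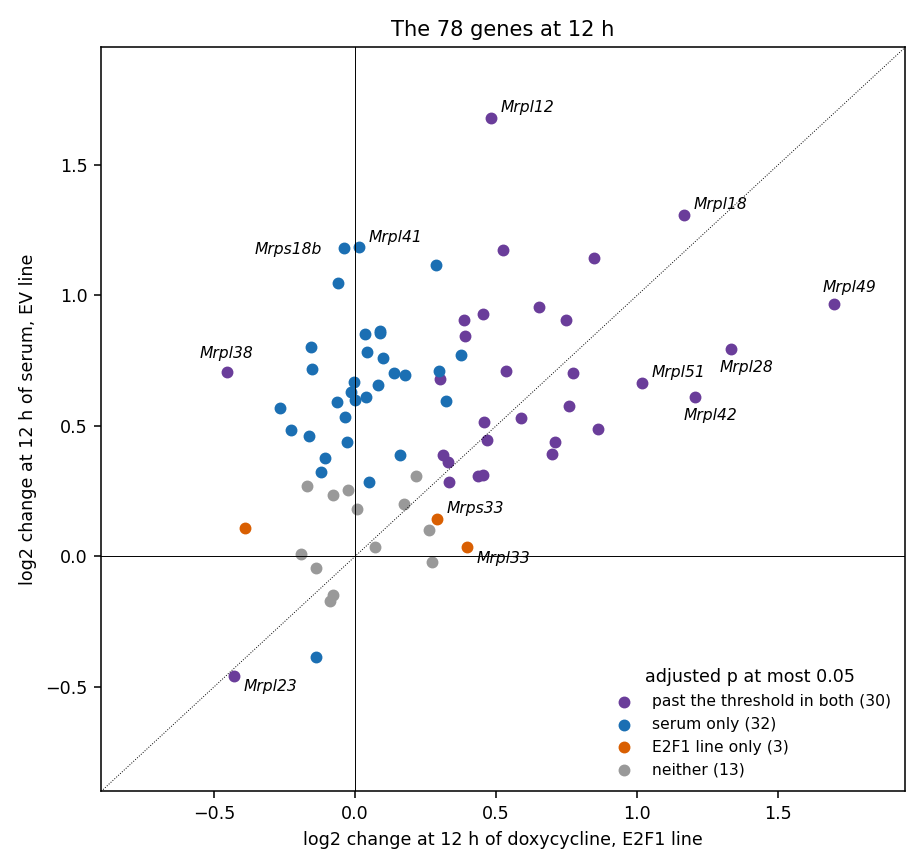
log2 change at 12 h of doxycycline in the E2F1 line (x axis) against that at 12 h of serum in the EV line (y axis), 1 point per gene, coloured by where the adjusted p was at most 0.05. The dotted line marks equal change. Of the 78 genes 30 passed in both, 32 with serum only, 3 in the E2F1 line only and 13 in neither; Mrpl49, Mrpl28, Mrpl42 and Mrpl51 lie below the line on the right.

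Many of these genes start back to back with a neighbour. Within 1000 bases, a divergent start of another protein-coding gene, overlaps of under 500 bases included, was annotated for 26 of 77 members, or 33.8%, and for 15.6% of the other protein-coding genes of the table. Of the 26, 12 were higher and 0 lower at 12 h in the E2F1 line, and of the 52 others 18 and 3. Of all genes 31.8% were higher and 29.7% lower. Genes outside the set with a divergent neighbour were not counted apart, and a tie between such starts and the change was not tested. Mrpl49 starts 59 bases from Fau, a cytosolic ribosomal protein gene, which changed by -0.06 at 12 h in the E2F1 line while Mrpl49 changed by 1.70. Mrpl51 starts 100 bases from Ncapd2, a condensin gene, which changed by 2.51 (adjusted p = 1.97e-07). Mrpl57 changed by 0.38 and its neighbour Ska3, a kinetochore gene, by 2.46.

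Mrpl13 overlaps the start of Mtbp and shares 330 of its 7936 exon bases with it. The 2 genes changed by 0.76 and 2.09 at 12 h in the E2F1 line and by 0.58 and 1.72 at 12 h of serum. Mrpl27 overlaps the start of Eme1, a gene of DNA repair, which changed by 2.53 at 12 h while Mrpl27 changed by 0.26 and was not called in any comparison with 0 h. Mrpl46 and Mrps11, both members, overlap head to head by 412 bases and changed by 0.65 and 0.53 at 12 h in the E2F1 line and by 0.95 and 0.71 at 12 h of serum. Mrpl40 and Hira, a histone chaperone gene, start 175 bases apart and changed by 0.86 and 0.89 at 12 h in the E2F1 line. Thus some pairs moved together and others apart. Whether the counting used strand is not given in the sources used here, and reads of overlapping genes on opposite strands then cannot be told apart.

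The other mitochondrial ribosomal proteins, which carry unrelated symbols, were 5 in number. With serum at 12 h all 5 were higher as deposited (36% of all genes), 3 at equal totals (32%) and 4 after quantile normalization (32%). Ptcd3 changed by 0.82, Chchd1 by 0.79, Aurkaip1 by 0.48, Gadd45gip1 by 0.47 and Dap3 by 0.17. In the E2F1 line at 12 h Chchd1 changed by 0.92 and Dap3, a GTP-binding protein of the small subunit, by 0.49, while Gadd45gip1 changed by -0.42, a call lost after quantile normalization, and the other two did not pass the test.

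Factors that act with the ribosome moved less uniformly. At 12 h of serum 36% of all genes were higher and 29.7% lower, and at 12 h in the E2F1 line 31.8% and 29.7%. The counts of the lists here and below can be read against these shares, and several lie near them. Of 24 assembly and rRNA modification genes, 8 were higher and 1 lower at 12 h of serum (median 0.29), and 5 and 3 at 12 h in the E2F1 line. The rRNA methyltransferase gene Mrm3 changed by 1.28 with serum and 0.53 with E2F1. Of 16 translation factors, 6 were higher and 3 lower with serum (median 0.17), among them the elongation factors Gfm1 at 1.01 and Tufm at 0.74, and the insertase Oxa1l at -0.58. In the E2F1 line 3 were higher and 5 lower at 12 h, with Qrsl1 at 0.90 and Guf1 at -0.76.

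Of 17 mitochondrial aminoacyl-tRNA synthetases, 7 were higher and 2 lower at 12 h of serum, with Mars2 at 1.61, and 5 and 6 in the E2F1 line. Of 11 genes for transcription and replication of mitochondrial DNA, 5 were higher and 1 lower with serum and 4 and 4 in the E2F1 line. Tfam, which packages mitochondrial DNA, changed by 0.66 with serum and 0.94 in the E2F1 line. The 2 ribosomal RNAs encoded in mitochondrial DNA were lower, the only ones of 13 mitochondrial transcripts called at 12 h of serum. mt-Rnr1 read 17999 and 19711 at 0 h in the EV line and 6218 and 6459 at 12 h of serum, a change of -1.57 (adjusted p = 1.34e-06), and mt-Rnr2 changed by -1.33. In the E2F1 line they changed by -0.87 and -0.60 at 12 h. The libraries were selected for polyadenylated RNA, and how this selection acts on these RNAs was not tested.

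Among regulators known for nuclear genes of mitochondria, Gabpb1, a partner of GABPA, changed by 1.30 and Nrf1 by 1.03 at 12 h in the E2F1 line, whereas Myc changed by -0.97 and Pprc1 by -0.45. With serum at 12 h Pprc1 changed by 1.27, Myc by 1.09 and Gabpb1 by 0.47, and Nrf1 by 0.14 without passing the test. In the EV line with doxycycline none of the 8 passed at 12 h, where 0.749% of all genes were higher and 3.42% lower.

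Cytosolic ribosomal protein genes are the closest set by function, and 84 were measured. At 12 h of serum 7 were higher (36% of all genes) and 53 lower (29.7%), with a median of -0.37. At 12 h in the E2F1 line 2 were higher (31.8%) and 68 lower (29.7%), with a median of -0.38. More were lower than higher under both other scalings too, with 7 higher and 64 lower at equal totals and 7 and 63 after quantile normalization for serum, and 2 and 75 and 1 and 59 for E2F1. Of 77 nuclear genes for subunits of oxidative phosphorylation, 47 were higher and 6 lower at 12 h of serum (median 0.31), with 34 and 7 at equal totals and 24 and 10 after quantile normalization. In the E2F1 line 16 were higher and 10 lower (median 0.03), and the split was 14 and 14 at equal totals and 14 and 23 after quantile normalization. Thus in the E2F1 line at 12 h the mitochondrial ribosomal set had a positive median where the cytosolic set had a negative one, a description of medians with no test between the lists.

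The authors' deposited tables, 9 comparisons with 0 h, list genes with an absolute log2 change of at least 2.0 and hold none of the 78 members. In the values above, no member reached a change of 2 on the log2 scale, and 8 changed at least 2-fold at 12 h of serum.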

How the data were processed

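Libraries of polyadenylated RNA, read as paired 150-base reads, gave 1 normalized count per gene and library. The submitters' processing notes name FastQC, Trimmomatic, HISAT2, featureCounts, DESeq2 and the build mm10, with no version or setting. The values the authors deposited are normalized counts rounded to whole numbers, treated here as a score and not as raw counts, so no count model was used. The deposited tables of comparisons hold the authors' log2 fold changes and p-values, and were used only to see whether members are listed.

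Groups came from the labels. Values were set to log2(normalized count + 1), and limma 3.58.1 in R 4.3.3 fitted 11 group means over 22 libraries (11 residual degrees of freedom, trend in the prior variance), with p-values adjusted by the Benjamini-Hochberg method over 11208 genes and a threshold of 0.05. Genes needed at least 10 in 2 libraries. Tables and figures used Python 3.11.15, pandas 2.3.3, numpy 2.4.6 and matplotlib 3.10.9. Exons come from GENCODE M21 (GRCm38). Tested on simulated data shaped as 12 h of serum, with 11208 genes, the fit called 51 of 103 genes changed by 0.5 and 80 of 97 changed by 1 (log2), and 3 unchanged genes. A change of 0.5 was thus often missed in this simulation. Only these 103 and 97 genes were changed in it, whereas 4039 genes passed as higher and 3328 as lower at 12 h of serum. With so few changed genes the adjusted threshold is stricter, so the share missed does not carry over to the comparisons above.

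Members and lists were chosen with earlier results of these data known. The genes named are, for each comparison, up to 6 of the largest rises and 6 of the largest falls past the threshold (against 0 h also with no overlap between groups), a set named throughout (Mrpl12, Mrps12, Mrps18b, Mrpl41, Mrps27, Mrpl58), the 3 highest and 3 lowest per kilobase, and up to 3 rises and falls of each other list. Genes with a promoter match, a divergent neighbour or an unusual time course were added after their values were seen. Alternatives were another pseudocount, scaling, filter or fold threshold, a replicate block, fewer groups, length and GC trends, and leaving out libraries.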

Additional observations from a re-analysis of the deposited data

Results flagged for a closer look

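The test of the change in the E2F1 line minus that in the EV line, both with doxycycline, found members whose response differed between the lines. At 6 h these were 15 members, 13 with a positive difference (22.2% of all genes) and 2 with a negative one (12.3%). The differences (log2) were 1.52 for Mrpl49, 1.05 for Mrpl28, 1.05 for Mrps26, 0.95 for Mrps7, 0.91 for Mrpl18 and 0.89 for Mrps24, and on the negative side -0.50 for Mrpl9 and -0.49 for Mrps9. The difference of Mrps9 did not pass when any 1 of 4 libraries was left out, namely 0 h replicate 2 or 6 h replicate 1 of either line. At 12 h 29 members differed between the lines, 28 with a positive difference (27.3% of all genes) and 1 with a negative one (23.3%). The differences were 1.76 for Mrpl49, 1.41 for Mrpl18, 1.39 for Mrpl42, 1.37 for Mrpl28, 1.19 for Mrpl51, 1.00 for Mrpl13 and -0.63 for Mrpl38.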

How the results depend on the processing

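Of 117 values past the threshold for named members, 27 were lost without 1 library, 40 were lost under at least 1 other alternative (15 with the 1.5-fold requirement set aside), 1 of them under the replicate block, and 0 changed sign. Counts of members called moved as follows. With equal totals they were 35 at 6 h in the E2F1 line (13 higher, 22 lower), 47 at 2 h of serum (14 and 33) and 32 between 6 and 12 h of serum. At 2 h of doxycycline in the EV line they were 2, with 1 higher (5.88% of all genes) and 1 lower (2.17%). After quantile normalization they were 34 at 6 h in the E2F1 line (12 and 22) and 1 at 2 h in that line, which was lower (1.59% of all genes). They were 0 at 12 h of doxycycline in the EV line (1.06% of all genes higher, 3.43% lower). Asking for a 1.5-fold change left 9 and 14 at 6 and 12 h in the E2F1 line, 0 at 12 h of doxycycline in the EV line, 19, 25 and 39 at 2, 6 and 12 h of serum, 4 and 8 for the steps from 6 to 12 h (E2F1, serum), 9 for E2F1 minus EV doxycycline at 6 h, 23 for E2F1 minus serum at 12 h and 1 between the lines at 0 h, which was lower. At 2 h of doxycycline in the EV line the count was 2 with pseudocount 8 or a mean of at least 500, and 4 (3 higher, 1 lower) with length and GC trends removed. That correction gave 0 at 12 h of doxycycline and 4 between the lines. Fitting only the groups compared gave 1 at 2 h in the E2F1 line, 0 at 12 h of EV doxycycline, 12 between 6 and 12 h of serum and 2 between the lines. Without the EV 2 h doxycycline libraries, 12 h of doxycycline gave 0. Leaving out 1 library gave 0 to 1 at 2 h and 0 to 2 at 12 h of EV doxycycline, 15 to 19 and 9 to 18 for the steps in the E2F1 line and with serum, and 1 to 3 between the lines. Shares of all genes are given for both scalings and, at 1.5-fold, for 12 h of serum and 12 h in the E2F1 line. For the other counts here and for the replicate block they are not given. Those counts therefore do not show whether the members moved apart from the table. The cause of these moves was not tested.

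Replicate numbers showed no pairing common to all groups, and whether some groups share one is not settled. Over 55 pairs of groups the deviations of same-numbered libraries had r from -0.277 to 0.455 (median 0.0314), and 18 were over 0.1. With the replicate block the EV line at 2 h of doxycycline had 4 members called (3 higher, 1 lower), and the other counts stayed within 1.5 times.

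Named values below the threshold that changed sign were, at 12 h in the E2F1 line, Mrps18b (0.0083, length and GC), Mrpl41 (-0.0717 quantile, -0.0439 equal totals, -0.2186 to 0.2468 without a library), Mrpl58 (-0.0197 quantile, -0.0117 to 0.1542 without a library) and Mrps12 (-0.0252 to 0.2028 without a library), and Mrps18b at 6 h (-0.0171 to 0.3074 without a library). At 12 h of EV doxycycline they were Mrps12 (0.0039 length and GC, -0.2493 to 0.1725 without a library), and without a library Mrpl12 (-0.3591 to 0.0847), Mrpl41 (-0.1084 to 0.2794) and Mrpl58 (-0.3903 to 0.0187). At 12 h of serum Mrpl58 was -0.0274 (quantile), -0.0443 (equal totals), -0.0512 (length and GC) and -0.0823 to 0.1561 without a library.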
